A study of Mus musculus with 17 samples.

Results

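Myc and a group of genes that build ribosomes were measured in poly(A) RNA of mouse B cells, in 17 libraries from 5 genotype groups. The genes were taken from a list of names, Myc, Max, Mxd4 and factors of ribosome production. The list held 54 genes, of which 53 were in the deposited table of 18554 gene symbols, with Utp4 listed there under its synonym Cirh1a. Noc2l was not analysed here. All 53 passed the filter for testing, a TPM (a transcript abundance corrected for length and library size) of at least 1 in at least 2 libraries, as did 9898 genes in all.

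All mice were C57BL/6 and the titles call every group old, with no age given. DM-CLL (n = 2, replicates 4 and 5) carried the mutation of the splicing factor gene Sf3b1 and the deletion of the DNA-damage kinase gene Atm, and is labelled CLL, chronic lymphocytic leukaemia. DM (n = 3, replicates 1, 3 and 6) carried both lesions without that label. Atm MT (n = 6) and Sf3b1 MT (n = 3) carried 1 lesion each, and WT (n = 3) carried neither. Per the series title the lesions are limited to B cells. The labels give neither the driver of recombination nor the kind of Sf3b1 mutation, and say nothing of which mouse each replicate came from. The p-values therefore measure the spread between these libraries, which may be technical.

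MYC is a transcription factor that pairs with MAX and binds E-boxes, short DNA motifs near gene starts. In growing cells it is known to raise ribosome production, from transcription of ribosomal RNA by RNA polymerase I in the nucleolus to folding, cleavage and modification of that RNA and assembly of both subunits. Proliferating B cells and many B-cell tumours have high MYC, while resting B cells have little.

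Every result is given on 2 scales. On the first, the TPM are as deposited. On the second, called scaled here, each library was divided by its median ratio to the geometric mean over libraries, taken over 7769 genes that reached 1 TPM throughout. The choice matters, since counts and medians below differ between the scales. The table holds 43.1% to 59.7% of each library's full TPM total, and the part of this in the difference was not tested. The scale factors were 1.15 to 1.303 in DM-CLL, 0.769 to 0.945 in DM, 0.849 to 1.17 in Atm MT, 0.955 to 0.983 in Sf3b1 MT and 1.03 to 1.09 in WT. Scaling moved the median log2 ratio of all tested genes between DM-CLL and DM to -0.03, against 0.43 as deposited. Depth is unknown, since no counts were given. The 7 B-cell markers summed to 3310 to 3697 TPM in DM-CLL, 2106 to 2960 in DM, 3011 to 4202 in Atm MT, 3738 to 4846 in Sf3b1 MT and 3695 to 4766 in WT, and none was at 0 in any library. The 5 erythroid markers summed to 34800.2 TPM in DM-CLL replicate 4, 36.4 TPM in DM-CLL replicate 5 and 15.3 to 2533 TPM in the others. In bulk RNA, fewer cells of a type and less RNA per cell cannot be told apart.

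The canonical E-box CACGTG, which reads the same on both strands, was searched for in the RefSeq promoter windows of build GRCm38.p6, each running from 250 bases before to 50 bases after a gene's start. Windows matched 47 of the 53 genes (none for Myc, Fbl, Npm1, Bop1, Rrp12 and Srm). The motif was in 13 of the 47 (27.7%), against 941 of the 7777 tested genes with a window (12.1%) and 7.15% of all 32851 windows. The genes with a match were Apex1, Imp4, Ltv1, Max, Mxd4, Mybbp1a, Nop2, Pes1, Tsr1, Utp18, Utp20, Utp4 and Wdr43. The share was not tested, and a match is a description of letters, not a site of binding. Printed here, 5′ to 3′ on the gene's strand with the motif in capitals, are stretches of 120 bases each. The first are from Max, the partner of MYC, and Mxd4, a MAX partner. Next are Wdr43 and Tsr1, 2 of the genes most changed between DM-CLL and DM, and Pes1, which hardly differed after scaling. Apex1, picked after its 3 matches were seen, comes last. They lie at chr12:76962219-76962338 (minus strand, Max), chr5:34187841-34187960 (minus strand, Mxd4), chr17:71616125-71616244 (plus strand, Wdr43), chr11:74897990-74898109 (plus strand, Tsr1), chr11:3963885-3964004 (plus strand, Pes1) and chr14:50924859-50924978 (plus strand, Apex1).
Max: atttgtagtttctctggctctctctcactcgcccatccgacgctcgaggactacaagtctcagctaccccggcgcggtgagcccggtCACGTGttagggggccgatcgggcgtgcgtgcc
Mxd4: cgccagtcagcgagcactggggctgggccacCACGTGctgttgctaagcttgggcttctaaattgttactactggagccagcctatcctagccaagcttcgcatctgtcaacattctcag
Wdr43: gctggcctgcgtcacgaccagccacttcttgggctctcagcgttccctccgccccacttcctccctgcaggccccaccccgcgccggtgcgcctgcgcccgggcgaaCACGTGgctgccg
Tsr1: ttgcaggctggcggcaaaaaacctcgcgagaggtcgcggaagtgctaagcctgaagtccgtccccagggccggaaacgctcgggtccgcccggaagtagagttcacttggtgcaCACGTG
Pes1: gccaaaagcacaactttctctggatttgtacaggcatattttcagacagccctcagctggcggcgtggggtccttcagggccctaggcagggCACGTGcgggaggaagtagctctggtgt
Apex1: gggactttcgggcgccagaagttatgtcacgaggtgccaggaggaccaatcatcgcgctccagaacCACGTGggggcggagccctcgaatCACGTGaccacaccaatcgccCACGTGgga

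Each printed stretch from Max, Wdr43, Tsr1 and Pes1 holds its motif within 30 bases of the start, at base -3 of Max, base 18 of Wdr43, base 25 of Tsr1 and base 3 of Pes1, counting the first base of the motif from the annotated start. In Mxd4 it begins at base -219. The first bases of the Apex1 matches are -24, 1 and 22. Genes with a match were thus among the most and the least changed, since Wdr43 and Tsr1 rose in DM-CLL on both scales and Pes1, Max and Mxd4 did not pass against DM on either.

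Myc itself (chromosome 15, 61985391 to 61990374) was highest in the leukaemic group. It measured 46.5 and 38.2 TPM in DM-CLL, 16.98, 5.85 and 14.3 TPM in DM, 19.2 to 28.4 TPM (median 24.2) in Atm MT, 13.0, 12.1 and 18.25 TPM in Sf3b1 MT, and 22.9, 17.2 and 8.51 TPM in WT. Both DM-CLL libraries lay above the other 15 on both scales. As deposited every DM library lay below every Atm MT library, while DM, Sf3b1 MT and WT overlapped. Group means were 42.4 ± 5.86 TPM in DM-CLL (SD, n = 2), 12.4 ± 5.81 in DM (n = 3), 24.2 ± 3.58 in Atm MT (n = 6), 14.4 ± 3.33 in Sf3b1 MT (n = 3) and 16.2 ± 7.26 in WT (n = 3). Ordered by mean from high to low, the groups were DM-CLL, Atm MT, WT, Sf3b1 MT and DM, and the means of Sf3b1 MT and WT, and of DM and Sf3b1 MT, differed by less than either group's SD.

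Myc rose in DM-CLL against DM by 1.80 ± 0.38 on the log2 scale (SE; adjusted p = 0.00242), and after scaling by 1.3 ± 0.37 (adjusted p = 0.0278). The scaled values were 35.7 and 33.3 in DM-CLL and 20.6, 7.61 and 15.2 in DM, which again did not overlap. As deposited the rise passed in each of the 17 fits that left out a library. After scaling it did not pass without DM replicate 3 (0.93, adjusted p = 0.0923), the DM library with the least Myc, nor without DM-CLL replicate 4 (1.25, adjusted p = 0.113) or replicate 5 (1.35, adjusted p = 0.0956). Against WT, which shares the DM-CLL libraries with the previous comparison, Myc rose by 1.43 (adjusted p = 0.0183), or 1.23 after scaling (adjusted p = 0.0398). As deposited that call ended when WT replicate 3 (1.05, adjusted p = 0.0767) or DM-CLL replicate 4 (1.29, adjusted p = 0.135) was left out. After scaling 6 of the 17 omissions ended it, with adjusted p up to 0.159.

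**Figure D1:**
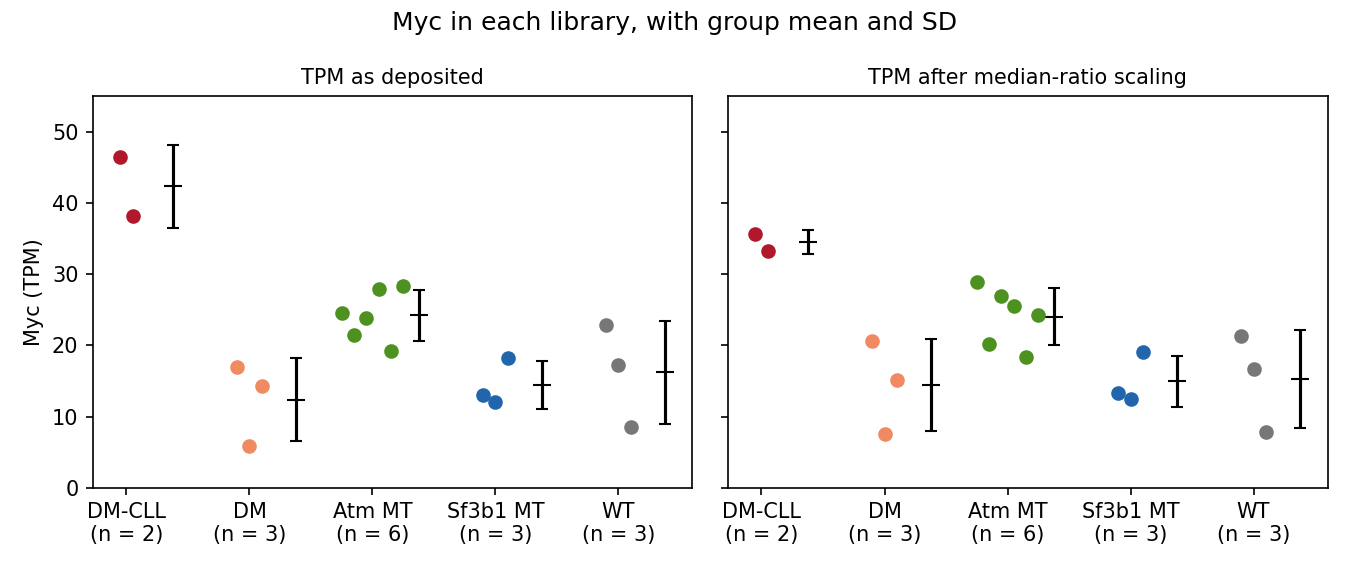
TPM of Myc (vertical axis) in each library as deposited (left) and after median-ratio scaling (right), with 1 point per library and the mean and SD of each group beside the points. On both scales the DM-CLL points lie above all others, at 46.5 and 38.2 TPM as deposited, and DM replicate 3 is the lowest, at 5.85 TPM.

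Max and Mxd4 moved less. Max, the obligate dimer partner of MYC, measured 44.0 and 41.6 TPM in DM-CLL and 32.1, 26.8 and 41.6 TPM in DM. The groups overlapped, and the log2 ratio was 0.37 as deposited (adjusted p = 0.136) and -0.16 after scaling (adjusted p = 0.427). Mxd4, a MAX partner that opposes MYC, measured 58.3 and 33.2 TPM in DM-CLL and 27.3, 25.2 and 36.5 TPM in DM. These overlapped, with log2 ratios of 0.57 (adjusted p = 0.101) and 0.05 after scaling (adjusted p = 0.893). Against WT, Max had a ratio of 0.39 (adjusted p = 0.178; 0.20 after scaling) and Mxd4 of 0.28 (adjusted p = 0.522; 0.09 after scaling). Mycn, a paralogue of Myc, measured 0 to 0.04 TPM in every library.

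Across the whole group, DM-CLL had higher levels than DM. As deposited, 45 of the 53 genes rose, 0 fell and all 53 had log2 ratios above 0, with a median of 0.94. Of all 9898 genes 29.2% were called higher and 1.97% lower in this comparison, 80.1% had ratios above 0, and the median was 0.43. Both DM-CLL libraries lay above every DM library for 46 of the 53 genes (47.3% of all genes did so), and for 26 after scaling (20.9% of all genes). After scaling, 11 rose and 0 fell (8.82% of all genes were called higher and 7.57% lower). Ratios were above 0 for 47 of the 53 (47.9% of all genes), and the median was 0.45, against -0.03 for all genes. The 11 were Myc, Wdr43, Gnl3, Nop58, Rrp1b, Tsr1, Ncl, Bop1, Dkc1, Noc3l and Utp18. The 8 that did not pass as deposited were Max, Mxd4, Nop14, Noc4l, Imp4, Pes1, Npm1 and C1qbp.

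The count depended on DM-CLL replicate 4. Without it, 19 of the 53 rose as deposited, where 13.9% of all genes did, and the median was 0.69 against 0.34 for all genes. After scaling the median was 0.25 against -0.04 for all genes. Wdr43, Tsr1, Bop1 and Rrp1b passed on both scales in all 17 omissions. The same library held the erythroid markers given above and 183 TPM of 6 T-cell markers, against 11.1 TPM in DM-CLL replicate 5 and 15.4 to 36.03 TPM in the other groups. Markers of cycling cells summed to 244 TPM in replicate 4 and 86.2 TPM in replicate 5, against 64.8 to 237 TPM in DM. The NK-cell markers summed to 54.8 TPM in replicate 4 and 7.09 TPM in replicate 5, against 13.5 to 29.9 TPM in DM. Neutrophil markers summed to 1320 TPM in replicate 4 and 111 TPM in replicate 5, against 444 to 1477 TPM in DM. The 5 plasma-cell markers summed to less in both DM-CLL libraries, at 100.1 and 131 TPM, against 219 to 232 TPM in DM and 174 to 234 TPM in WT. Among them Xbp1, Sdc1 and Tnfrsf17 were lower in DM-CLL than in DM. Prdm1 was higher, at 4.12 to 8 TPM against 2.16 to 2.77 TPM. The part of these cells in the result was not tested.

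**Figure D2:**
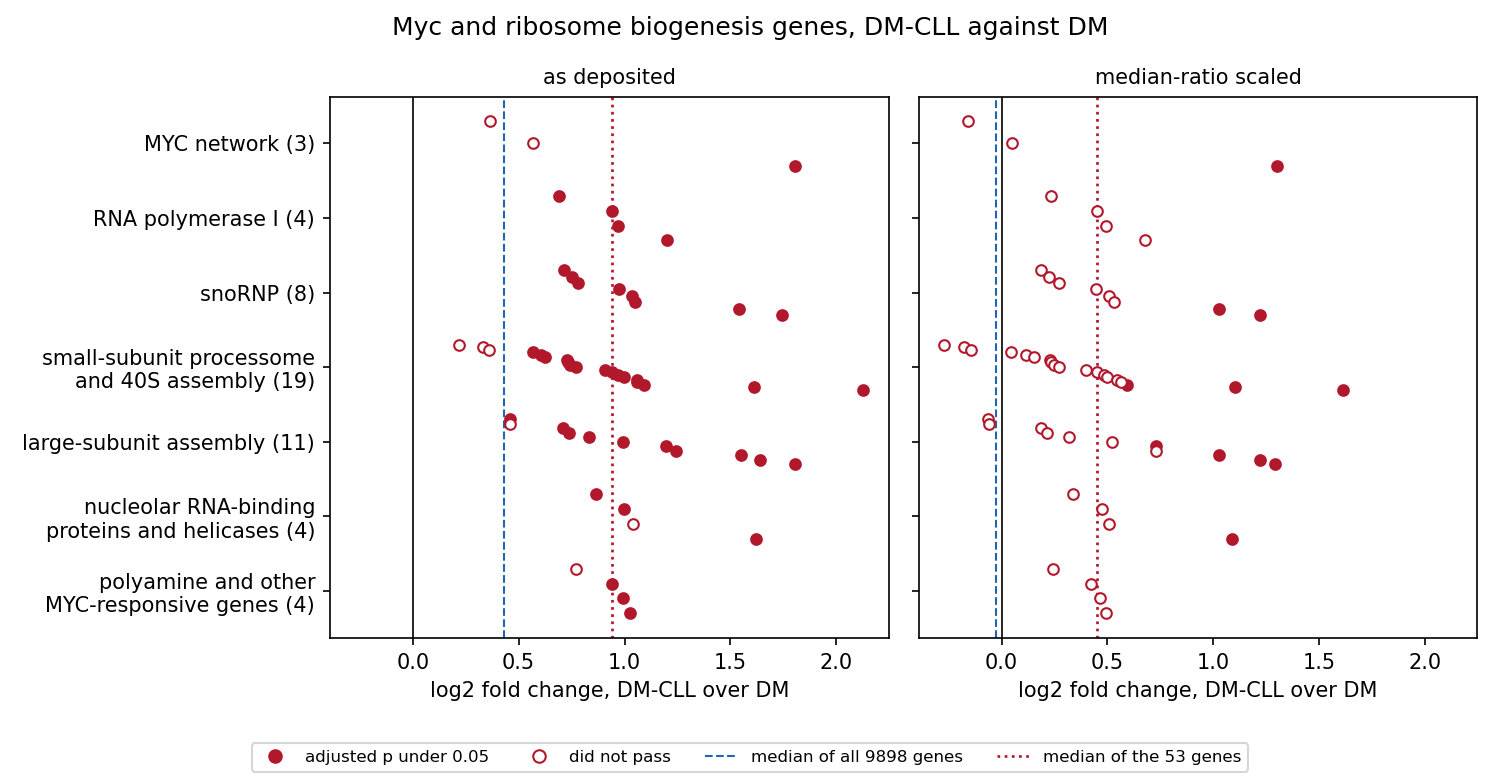
Log2 fold change of each of the 53 genes in DM-CLL over DM (horizontal axis), by role, as deposited (left) and after median-ratio scaling (right), with filled points for an adjusted p under 0.05. The dotted line marks the median of the 53 genes (0.94 and 0.45) and the dashed line that of all tested genes (0.43 and -0.03).

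RNA polymerase I transcribes the long ribosomal RNA precursor. All 4 of its subunits on the gene list rose in DM-CLL against DM as deposited (median 0.95) and 0 passed after scaling (median 0.47). Further subunits were measured and are counted below among the other genes of ribosome production. Polr1c, a subunit shared with RNA polymerase III (chromosome 17, 46243920 to 46248054), measured 98.2 and 57.9 TPM in DM-CLL, 28.9, 37.2 and 31.1 TPM in DM and 49.7, 32.9 and 39.1 TPM in WT. DM-CLL lay above both other groups, at 1.2 against DM (adjusted p = 0.00182; 0.68 after scaling, adjusted p = 0.0551) and 0.90 against WT (adjusted p = 0.0199). Neither call held without DM-CLL replicate 4 (0.83, adjusted p = 0.0506, against DM; 0.52, adjusted p = 0.299, against WT), and the call against WT was also lost without WT replicate 2 (0.76, adjusted p = 0.0807) or replicate 3 (0.88, adjusted p = 0.0526). Polr1a, the largest subunit, measured 12.8 and 9.99 TPM in DM-CLL, 4.79, 5.55 and 5.56 TPM in DM and 5.43, 6.42 and 6.16 TPM in WT. DM-CLL lay above DM and WT, which overlapped each other, with a rise of 0.97 against DM (adjusted p = 0.00661; 0.50 after scaling, adjusted p = 0.0746) and of 0.82 against WT (adjusted p = 0.0312; 0.63 after scaling, adjusted p = 0.0326). Polr1b and Polr1e had ratios of 0.94 and 0.69 to DM.

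Small nucleolar ribonucleoproteins (snoRNPs) modify the precursor, with box C/D particles adding methyl groups and box H/ACA particles making pseudouridine. All 8 snoRNP proteins on the gene list rose in DM-CLL against DM as deposited (median 1.0), and Nop58 and Dkc1 also after scaling (median 0.48). Nop58, a core box C/D protein (chromosome 1, 59684971 to 59719044), measured 86.5 and 62.4 TPM in DM-CLL, 20.25, 22.6 and 21.0 TPM in DM and 41.9, 35.4 and 20.2 TPM in WT. Its DM-CLL values lay above all others, and DM overlapped the lowest WT library. The rise was 1.74 ± 0.32 against DM (adjusted p = 0.000971; 1.22 after scaling, adjusted p = 0.0181) and 1.22 ± 0.32 against WT (adjusted p = 0.0178; 1.02 after scaling, adjusted p = 0.0470). After scaling the call against DM was lost without DM-CLL replicate 4 (1.08, adjusted p = 0.109) or replicate 5 (1.36, adjusted p = 0.0512). The call against WT was lost as deposited without WT replicate 3 (0.92, adjusted p = 0.0760) or DM-CLL replicate 4 (0.98, adjusted p = 0.176), and after scaling in 12 of 17 omissions.

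Dkc1, the pseudouridine synthase dyskerin (chromosome X, 75095854 to 75109777), measured 60.6 and 42.7 TPM in DM-CLL, 15.8, 17.3 and 17.4 TPM in DM and 31.5, 28.9 and 19.4 TPM in WT. As deposited all 3 groups stood apart, DM-CLL highest and DM lowest, while DM overlapped WT after scaling. The rise was 1.54 ± 0.24 against DM (adjusted p = 0.000274; 1.03 after scaling, adjusted p = 0.00423) and 0.94 against WT (adjusted p = 0.0140; 0.74 after scaling, adjusted p = 0.0282). Without DM-CLL replicate 4 the scaled ratio to DM was 0.87 (adjusted p = 0.0506). Fbl, the methyltransferase fibrillarin, had the highest mean level of these proteins, with 166 and 238 TPM in DM-CLL, 87.4, 106 and 175 TPM in DM and 105, 111 and 101 TPM in WT. Here DM-CLL and DM overlapped, and the rise of 0.75 against DM (adjusted p = 0.0441) was 0.22 after scaling (adjusted p = 0.575). It passed as deposited in 6 of 17 omissions, and the ratio was 0.50 without DM-CLL replicate 5 (adjusted p = 0.266) and 0.54 without DM replicate 1 (adjusted p = 0.170). Nop56, Nhp2, Nop10, Gar1 and Nolc1 had ratios to DM of 0.71 to 1.05 as deposited and 0.18 to 0.53 after scaling.

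The small-subunit processome folds and cuts the part of the precursor that becomes the small subunit. Of its 19 genes on the gene list, including later assembly factors, 16 rose in DM-CLL against DM as deposited (median 0.77). After scaling Wdr43, Tsr1 and Utp18 rose (median 0.27). Wdr43, an early processome protein (chromosome 17, 71615895 to 71659031), changed most of all 53 genes. It measured 71.4 and 73.4 TPM in DM-CLL, 15.9, 13.95 and 17.7 TPM in DM, 26.6 to 50.1 TPM (median 28.6) in Atm MT, 25.4, 12.1 and 18.1 TPM in Sf3b1 MT and 27.1, 28.4 and 19.1 TPM in WT. The highest other library, Atm MT replicate 2 with 50.1 TPM, was well below both DM-CLL libraries. The rise was 2.13 ± 0.29 against DM (4.37-fold, adjusted p = 0.000112; 1.61 after scaling, adjusted p = 0.00118) and 1.52 against WT (adjusted p = 0.00222; 1.33 after scaling, adjusted p = 0.00425). It passed in all 17 omissions of both comparisons on both scales.

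Tsr1, which acts late in assembly of the small subunit (chromosome 11, 74898071 to 74909342), measured 43.1 TPM in each DM-CLL library, 11.9, 11.1 and 18.2 TPM in DM and 18.2, 19.75 and 14.6 TPM in WT. DM-CLL lay above the other 15 libraries, and DM and WT overlapped. Its rise was 1.61 ± 0.23 against DM (adjusted p = 0.000133; 1.10 after scaling, adjusted p = 0.00103) and 1.26 against WT (adjusted p = 0.00131; 1.07 after scaling, adjusted p = 0.00126), and passed in all omissions on both scales. Utp18, another processome protein, measured 23.2 and 18.2 TPM in DM-CLL and 9.11, 7.74 and 10.7 TPM in DM, which did not overlap (1.09, adjusted p = 0.00254; 0.59 after scaling, adjusted p = 0.0422). Heatr1, a large early processome protein, narrowly missed after scaling (0.50, adjusted p = 0.0505). Imp3, which recruits the U3 snoRNP and had the highest mean of these genes, measured 40.8 and 50.1 TPM in DM-CLL and 24.7, 30.1 and 36.9 TPM in DM. Its rise of 0.57 as deposited (adjusted p = 0.0270) was 0.05 after scaling (adjusted p = 0.871) and did not pass without DM replicate 1 (0.43, adjusted p = 0.113), DM replicate 3 (0.57, adjusted p = 0.0586) or DM-CLL replicate 5 (0.42, adjusted p = 0.163). Its partner Imp4, with Nop14 and Noc4l, had ratios of 0.22, 0.36 and 0.33 that did not pass.

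Of 11 genes for assembly of the large subunit, 10 rose in DM-CLL against DM as deposited (median 0.99) and Bop1, Rrp1b, Noc3l and Gnl3 after scaling (median 0.52). Bop1, Pes1 and Wdr12 encode the PeBoW complex, which processes precursors of the large subunit, and they differed. Bop1 (chromosome 15, 76452989 to 76477277) measured 81.4 and 56.1 TPM in DM-CLL, 19.4, 25.3 and 23.0 TPM in DM and 38.2, 27.9 and 29.1 TPM in WT. As deposited the 3 groups did not overlap, while DM overlapped WT after scaling. The rise was 1.55 ± 0.19 against DM (adjusted p = 5.35e-05; 1.03 after scaling, adjusted p = 0.00180) and 1.08 against WT (adjusted p = 0.00132; 0.88 after scaling, adjusted p = 0.00467). Without DM-CLL replicate 4 the scaled ratio to WT was 0.71 (adjusted p = 0.0674). Pes1 measured 67.2 and 54.1 TPM in DM-CLL, 43.6, 40.6 and 46.8 TPM in DM and 39.25, 39.2 and 46.3 TPM in WT. Though DM-CLL was above both groups as deposited, Pes1 did not pass against DM (0.46, adjusted p = 0.0547) and its ratio was -0.07 after scaling (adjusted p = 0.733). Wdr12 measured 12.2 and 10.2 TPM in DM-CLL and 4.37, 5.30 and 5.74 TPM in DM, a rise of 0.99 (adjusted p = 0.0132; 0.52 after scaling, adjusted p = 0.182). The difference between the 3 subunits was not tested.

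Gnl3, the nucleolar GTP-binding protein nucleostemin (chromosome 14, 31012433 to 31019152), measured 55.8 and 51.8 TPM in DM-CLL, 13.75, 14.8 and 15.5 TPM in DM and 27.2, 24.8 and 12.5 TPM in WT. DM-CLL was above all other libraries, and WT replicate 3 below DM. The rise was 1.81 ± 0.33 against DM (adjusted p = 0.00104; 1.29 after scaling, adjusted p = 0.0194) and 1.35 against WT (adjusted p = 0.0124; 1.16 after scaling, adjusted p = 0.0371). After scaling the rise against DM did not pass without DM replicate 1 (1.26, adjusted p = 0.0526) or DM-CLL replicate 4 (1.33, adjusted p = 0.0748) or 5 (1.25, adjusted p = 0.0937). Against WT the deposited values gave no call when WT replicate 3 was left out (1.02, adjusted p = 0.0522), nor without DM-CLL replicate 4 (1.3, adjusted p = 0.0889). The scaled call against WT ended when WT replicate 3 (0.81, adjusted p = 0.139), DM-CLL replicate 4 (1.19, adjusted p = 0.123) or DM-CLL replicate 5 (1.12, adjusted p = 0.137) was left out. Rrp1b, a nucleolar protein of low level, measured 8.53 and 7 TPM in DM-CLL, 1.16, 2.91 and 1.60 TPM in DM and 3.69, 3.53 and 2.63 TPM in WT. DM-CLL was again above the rest, at 1.64 against DM (adjusted p = 0.000349; 1.22 after scaling, adjusted p = 0.00743) and 1.04 against WT (adjusted p = 0.0137; 0.85 after scaling, adjusted p = 0.0509). The deposited call against WT ended when WT replicate 3 (0.92, adjusted p = 0.0538) or DM-CLL replicate 4 (0.91, adjusted p = 0.122) was left out. Noc3l, a large-subunit factor, rose by 1.2 against DM (adjusted p = 0.000564; 0.73 after scaling, adjusted p = 0.0152), with 12.05 and 11.6 TPM in DM-CLL and 4.62, 3.95 and 5.30 TPM in DM. Nop16 measured 37.2 and 29.8 TPM in DM-CLL and 9.78, 16.7 and 14.99 TPM in DM. Its rise of 1.24 (adjusted p = 0.00414) was 0.73 after scaling (adjusted p = 0.0990), and 1.08 as deposited without DM-CLL replicate 4 (adjusted p = 0.0536).

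Among nucleolar RNA-binding proteins and helicases, Ncl, Ddx21 and Mybbp1a rose in DM-CLL against DM as deposited, Ncl also after scaling, and Npm1 did not pass. Ncl encodes nucleolin, an abundant nucleolar protein that binds the precursor (chromosome 1, 86344719 to 86359400). It measured 243 and 203 TPM in DM-CLL, 77.0, 66.6 and 71.7 TPM in DM and 126, 162 and 85.55 TPM in WT. These 3 groups did not overlap as deposited, while DM overlapped WT after scaling. The rise passed against DM (1.62 ± 0.33, adjusted p = 0.00196; 1.09 after scaling, adjusted p = 0.0315) and not against WT (0.88, adjusted p = 0.0914). After scaling the call against DM was lost in 5 of 17 omissions, those of each DM and each DM-CLL library, with adjusted p of 0.0558 to 0.122. Npm1, the histone and ribosome chaperone nucleophosmin (chromosome 11, 33152287 to 33163206), measured 486 and 252 TPM in DM-CLL, 206, 199 and 118 TPM in DM and 382, 403 and 244 TPM in WT. As deposited DM-CLL was above DM (1.04 ± 0.46, adjusted p = 0.0915) and overlapped WT (0.06, adjusted p = 0.949). Polyamines support growth, and Odc1, the first enzyme of their synthesis, measured 125 and 145 TPM in DM-CLL, 84.25, 74.6 and 45.04 TPM in DM and 65.25, 59.0 and 52.99 TPM in WT. It rose by 1.03 against DM (adjusted p = 0.0121; 0.50 after scaling, adjusted p = 0.309) and by 1.18 against WT (adjusted p = 0.00966; 0.98 after scaling, adjusted p = 0.0542). Without DM-CLL replicate 5 neither passed (0.92, adjusted p = 0.0687, against DM; 1.07, adjusted p = 0.0636, against WT). Srm, spermidine synthase, and Apex1, a DNA repair nuclease, rose by 0.94 and 0.99 against DM as deposited, and C1qbp had 0.77 (adjusted p = 0.0957).

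Against WT, 25 of the 53 genes rose in DM-CLL as deposited and 0 fell (10.3% of all genes were called higher and 2.81% lower), with a median of 0.67 against 0.19 for all genes. After scaling 12 rose and 0 fell (7.67% of all genes higher and 5.83% lower), with a median of 0.47 against 0.02. Both DM-CLL libraries lay above every WT library for 41 genes (32.2% of all genes did so), and for 38 after scaling (21.4% of all genes). By role, the genes that rose as deposited were 3 of 4 for RNA polymerase I, 5 of 8 for snoRNPs, 5 of 19 for the small subunit, 8 of 11 for the large subunit, 1 of 4 nucleolar proteins, 2 of 4 for polyamines and other MYC-responsive genes, and Myc. The count was 6 without WT replicate 3, and 3 after scaling, where it was 7 without WT replicate 2. It also fell without DM-CLL replicate 4 on both scales, and without DM-CLL replicate 5 after scaling, fits that leave 1 leukaemic library. The share of all genes called in these fits is not given here, so these counts do not set the 53 genes against the rest. WT replicate 3 had the least Myc, Gnl3, Nop58 and Dkc1 of its group, together with 926 TPM of macrophage and 1040 TPM of neutrophil markers, the most among WT libraries. The part of these cells in the result was not tested.

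Both DM-CLL libraries lay above all 15 others for 26 of the 53 genes as deposited, where 15.1% of all genes did so. After scaling this held for 12 genes, against 7.73% of all genes. The 12 were Myc, Polr1a, Polr1c, Nop58, Dkc1, Wdr43, Tsr1, Bop1, Rrp1b, Noc3l, Gnl3 and Ncl. The heat map of scaled values shows these as red cells in both DM-CLL columns, and also shows Atm MT replicate 2 with higher Wdr43, Gnl3, Nop16, C1qbp and Nhp2 than the non-leukaemic mean and Sf3b1 MT replicate 2 with low Npm1, Gnl3, Ncl and Wdr43.

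**Figure D3:**
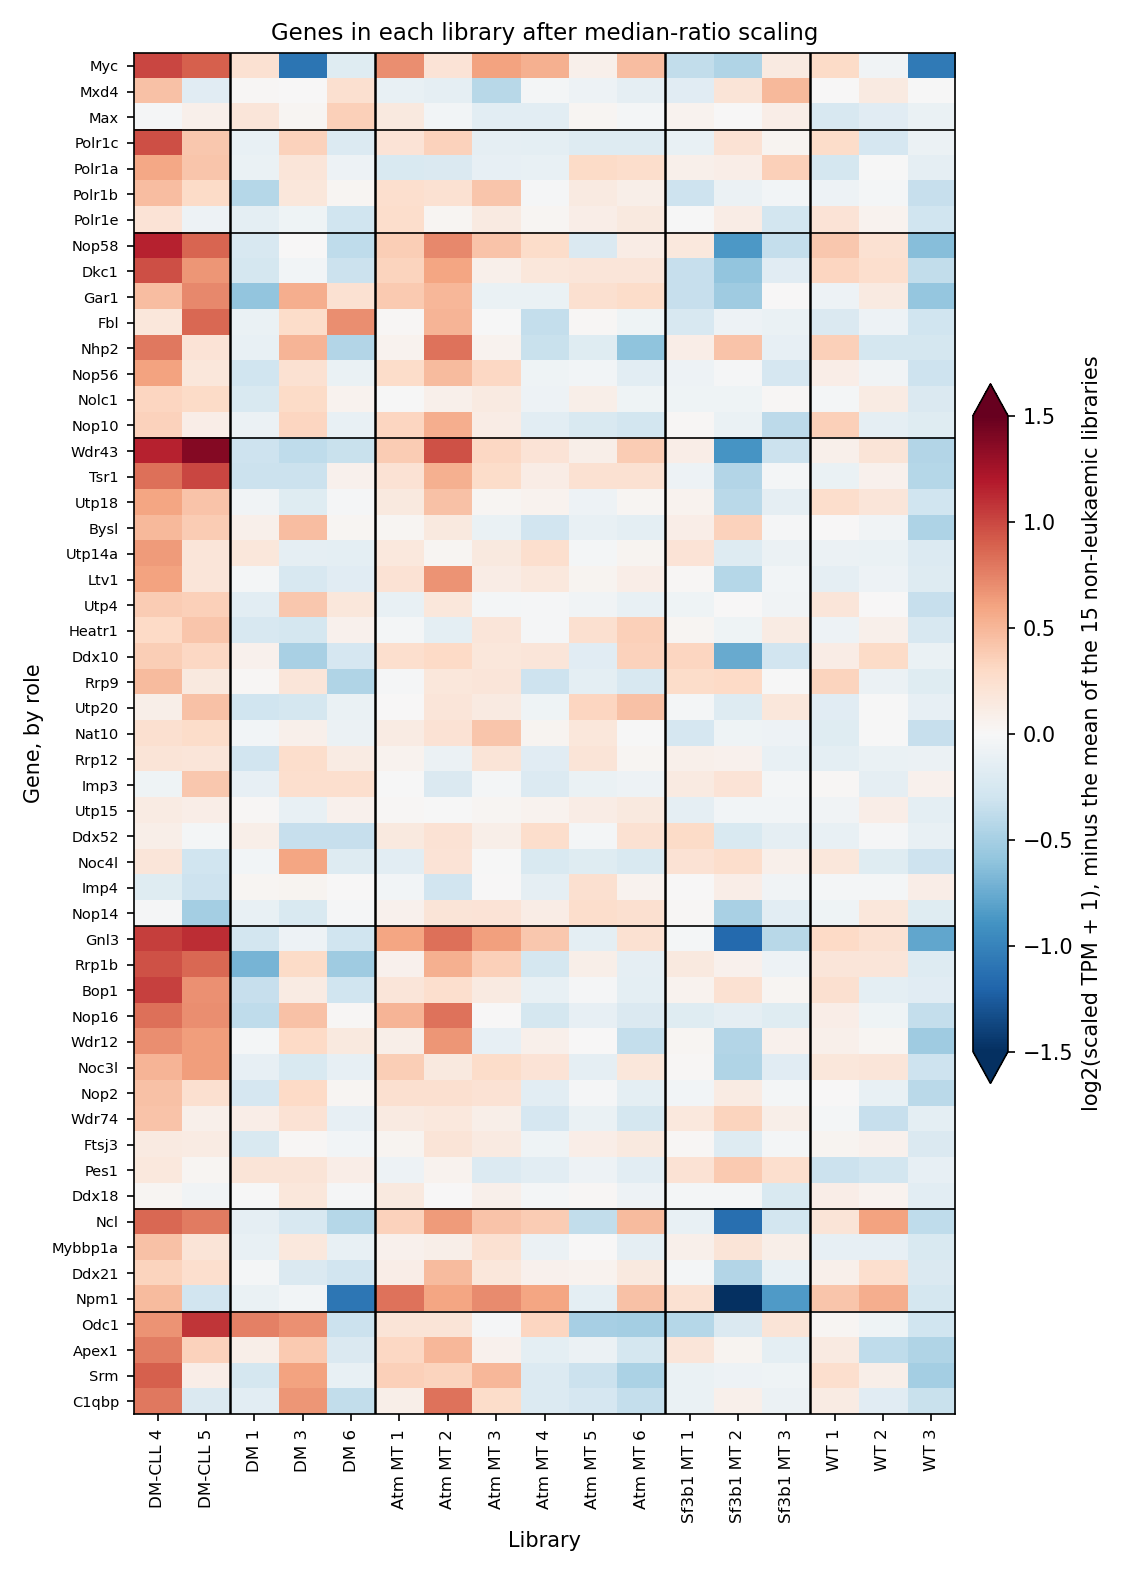
Each of the 53 genes (rows, by role) in each of the 17 libraries (columns), as log2 of the scaled TPM plus 1 minus the mean of the 15 non-leukaemic libraries (colour, from -1.5 in blue to 1.5 in red). The DM-CLL columns are red for most rows, most strongly for Wdr43, Gnl3, Myc and Nop58, and pale for Max, Pes1, Ddx18 and Ddx52.

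Chromosome position went with some of these changes. After scaling, the median over chromosome 15 genes stood at 0.54 and 0.55 in the DM-CLL libraries relative to the other libraries, against -0.10 to 0.14 in the 15 others, and the median over chromosome 17 at 0.22 and 0.27, against -0.05 to 0.09. The 36 medians of other chromosomes in the DM-CLL libraries lay between -0.13 and 0.08. Of the 53 genes, 6 are on these chromosomes, Myc and Bop1 on 15 and Polr1c, Bysl, Wdr43 and Rrp1b on 17. After scaling 4 of the 6 rose against DM, with a median of 1.12, while 27.8% of the 893 genes of these chromosomes were called higher, with a median of 0.38. On all other chromosomes 7 of 47 rose (14.9%), with a median of 0.42 and 41 above 0. Of the 8728 genes there 6.85% were called higher and 3922 had ratios above 0, with a median of -0.06. As deposited 39 of the 47 rose (83.0%), against 26.1% of the genes there. Against WT the scaled count was 4 of 6 on chromosomes 15 and 17, where 25.0% of genes were called higher. Elsewhere it was 8 of 47 (17.02%), where 5.84% of genes were called higher. Gene copies were not measured, and the part of chromosome position in each gene's rise was not tested.

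**Figure D4:**
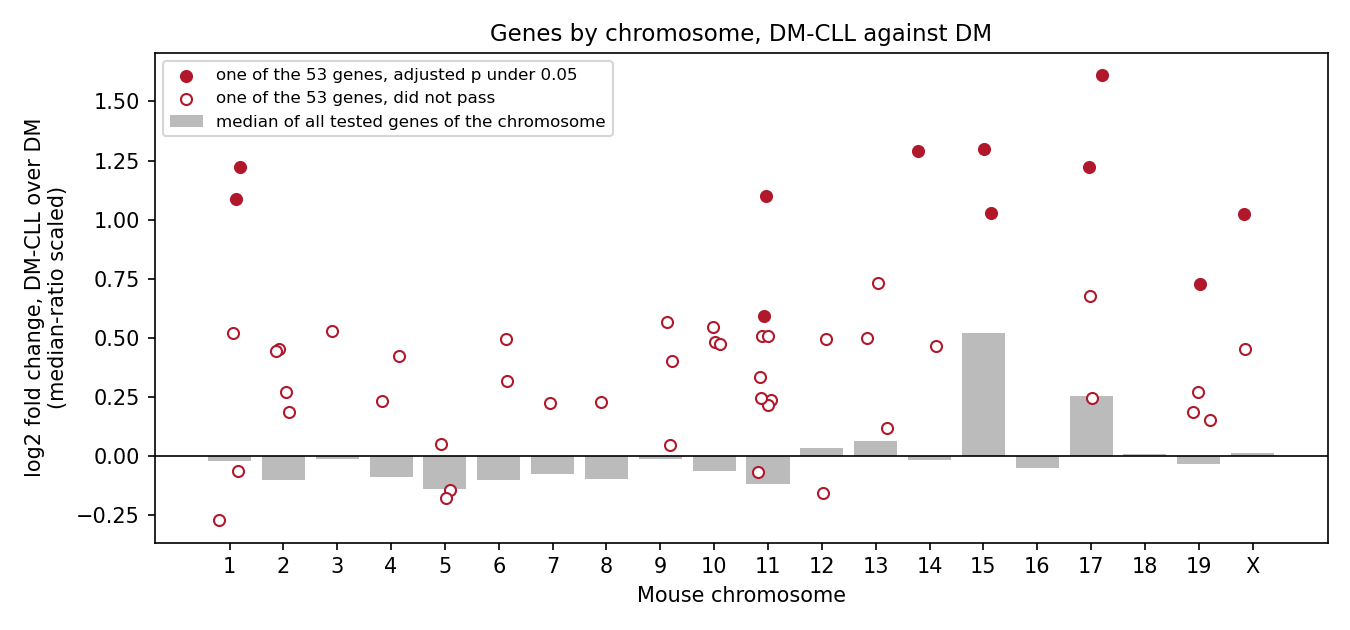
Log2 fold change in DM-CLL over DM after scaling (vertical axis) of each of the 53 genes, placed by mouse chromosome (horizontal axis), with filled points for an adjusted p under 0.05 and grey bars for the median of all tested genes of that chromosome. The bars of chromosomes 15 and 17 stand highest, at 0.52 and 0.25, and the genes on other chromosomes mostly lie above their bars.

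In all, 8 of the genes hold small nucleolar RNA genes between their ends, on the same strand, in the GENCODE M21 annotation of GRCm38. They are Nop56, Nop58, Wdr43, Gnl3, Ncl, Tsr1, Dkc1 and Odc1, called hosts here. Where such an RNA lies in an intron, splicing of the host transcript releases it to guide ribosomal RNA modification. Introns were not checked, here or for the other host genes. This grouping was made after the values were seen. In DM-CLL against DM after scaling, 6 of these 8 rose, with a median of 1.10, against 5 of the other 45, with a median of 0.34. Of 131 other tested host genes that do not encode ribosomal proteins, 11 rose (8.40%), with a median of 0.08. Against WT, 5 of the 8 rose after scaling (median 1.0), against 7 of the other 45 (median 0.43) and 7 of the 131 other host genes (5.34%, median 0.14). In Sf3b1 MT against WT, the 8 hosts all had ratios below 0, with medians of -0.46 as deposited and -0.33 after scaling and 0 passing. The other 45 had medians of -0.08 and 0.05. The 131 other host genes had medians of -0.21 and -0.08, with 40 and 51 of them above 0. These shares were not tested.

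Other genes of ribosome production, 116 that are not among the 53, were tested as well. In DM-CLL against DM 79 of them rose as deposited (68.1%, median 0.74), where 29.2% of all genes did and the median of all genes was 0.43. After scaling 18 rose (15.5%, median 0.23), where 8.82% of all genes did and the median was -0.03. Against WT 22 rose as deposited (18.97%, median 0.45), against 10.3% of all genes (median 0.19), and 15 after scaling (12.9%, median 0.26), against 7.67% (median 0.02). Brix1, a large-subunit factor on chromosome 15, measured 35.0 to 35.7 TPM in DM-CLL and 6.47 to 8.41 TPM in DM, a rise of 2.12 (adjusted p = 0.000246; 1.62 after scaling, adjusted p = 0.00394). Mphosph10, the processome partner of Imp3 and Imp4, measured 25.4 to 32.6 TPM in DM-CLL and 7.32 to 9.05 TPM in DM (1.72, adjusted p = 0.00203; 1.22 after scaling, adjusted p = 0.0246). After scaling, 5 of 9 on chromosome 15 rose (Brix1, Dcaf13, Rrp7a, Nol12 and Rpap3), 1 of 5 on chromosome 17 (Rrp36) and 12 of the remaining 102. By list, 33 of 42 other small-subunit genes rose as deposited and 10 after scaling, 30 and 6 of 47 for the large subunit, 12 and 0 of 18 for RNA polymerase I, and 4 and 2 of 11 for snoRNP assembly. Rrp8 and Tcof1 are each on 2 of these lists and count once among the 116.

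Ubtf went the other way. It encodes the upstream binding factor that opens ribosomal DNA for RNA polymerase I, and measured 3.82 to 4.56 TPM in DM-CLL, 14.5 to 25.6 TPM in DM, 5.74 to 22.7 TPM in Atm MT, 11.6 to 20.6 TPM in Sf3b1 MT and 8.28 to 19.4 TPM in WT. Both DM-CLL libraries were below all others. It fell by 2.02 on the log2 scale against DM (adjusted p = 0.00395; -2.48 after scaling, adjusted p = 0.00165) and by 1.59 against WT (adjusted p = 0.0285; -1.73 after scaling, adjusted p = 0.0154). Of 16 other MYC network genes 1, Fbxw7, rose as deposited (1.17, adjusted p = 0.00567) and 0 after scaling, where 29.2% and 8.82% of all genes rose. Fbxw7 encodes a protein that targets MYC for degradation. Of 38 other MYC-responsive genes, 10 rose as deposited and Ccnd2 and Sms after scaling (median 0.03), where 29.2% and 8.82% of all genes did. Ccnd2, cyclin D2, measured 45.5 to 54.5 TPM in DM-CLL and 8.44 to 11.7 TPM in DM (2.21, adjusted p = 0.000844; 1.70 after scaling, adjusted p = 0.0117). Slc3a2, a chain of amino acid transporters, fell after scaling by 1.61 (adjusted p = 0.00122).

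Among the non-leukaemic groups, genes of the list passed in DM against Atm MT, which sets the Sf3b1 mutation against its absence in Atm-deleted cells. As deposited, 6 of the 53 genes fell in DM and 0 rose (4.52% of all genes were called lower and 1.54% higher), with a median of -0.34 against -0.21. After scaling 0 passed in limma (1.12% of all genes were called lower and 2.78% higher), 17 had an unadjusted p under 0.05 (32.1%, against 22.7% of all genes), and the median was -0.09 against 0.01. The 6 were Wdr43, Dkc1, Tsr1, Ddx21, Ddx52 and Ltv1. Wdr43 measured 15.9, 13.95 and 17.7 TPM in DM and 26.6 to 50.1 TPM (median 28.6) in Atm MT, and Dkc1 15.8, 17.3 and 17.4 TPM in DM and 21.8 to 37.65 TPM (median 28.2) in Atm MT. Neither overlapped, and they fell by 0.97 (adjusted p = 0.0348; -0.73 after scaling, adjusted p = 0.0703) and 0.72 (adjusted p = 0.0375; -0.47 after scaling, adjusted p = 0.109). The other 4 fell by 0.60 to 0.70 (adjusted p = 0.0400 to 0.0483).

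Myc in DM was 12.4 ± 5.81 TPM (SD, n = 3), against 24.2 ± 3.58 TPM in Atm MT (n = 6), and its ratio of -1.02 ± 0.30 did not pass (adjusted p = 0.0546; -0.78 after scaling, adjusted p = 0.143). Npm1 was 175 ± 48.7 TPM in DM and 389 ± 69.2 TPM in Atm MT, without overlap as deposited (-1.17 ± 0.34, adjusted p = 0.0548; -0.91 after scaling, adjusted p = 0.167). The count of 6 was 0 without Atm MT replicate 4, DM replicate 1 or DM replicate 3. It was 2 without WT replicate 1 or 2, Sf3b1 MT replicate 3 or Atm MT replicate 2 or 6. Without Atm MT replicate 1 or DM replicate 6 it was 10, and without Atm MT replicate 5 it was 11. The share of all genes called in each of these fits is not given here. Wdr43 and Dkc1 kept their calls in 12 of 15 omissions, and lost them without Atm MT replicate 4 (-0.99, adjusted p = 0.0714, and -0.71, adjusted p = 0.0759), DM replicate 1 (-0.98, adjusted p = 0.0867, and -0.68, adjusted p = 0.105) or DM replicate 3 (-0.89, adjusted p = 0.186, and -0.74, adjusted p = 0.177). B-cell markers summed to 2106 to 2960 TPM in DM, less than the 3011 to 4202 TPM of Atm MT, and neutrophil markers to 444 to 1477 TPM in DM and 87.85 to 726 TPM in Atm MT. The part of other cells in these values was not tested. Among the further MYC network genes Mxd1, another MAX partner that opposes MYC, rose in DM on both scales (0.91, adjusted p = 0.0417; 1.15 after scaling, adjusted p = 0.0190), with 7.12 to 13.8 TPM in DM and 3.28 to 6.91 TPM in Atm MT. Tgs1, which methylates the cap of some small nucleolar RNAs, fell on both scales, by 0.84 and, after scaling, by 0.61 (adjusted p = 0.0329 and 0.0499).

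**Figure D5:**
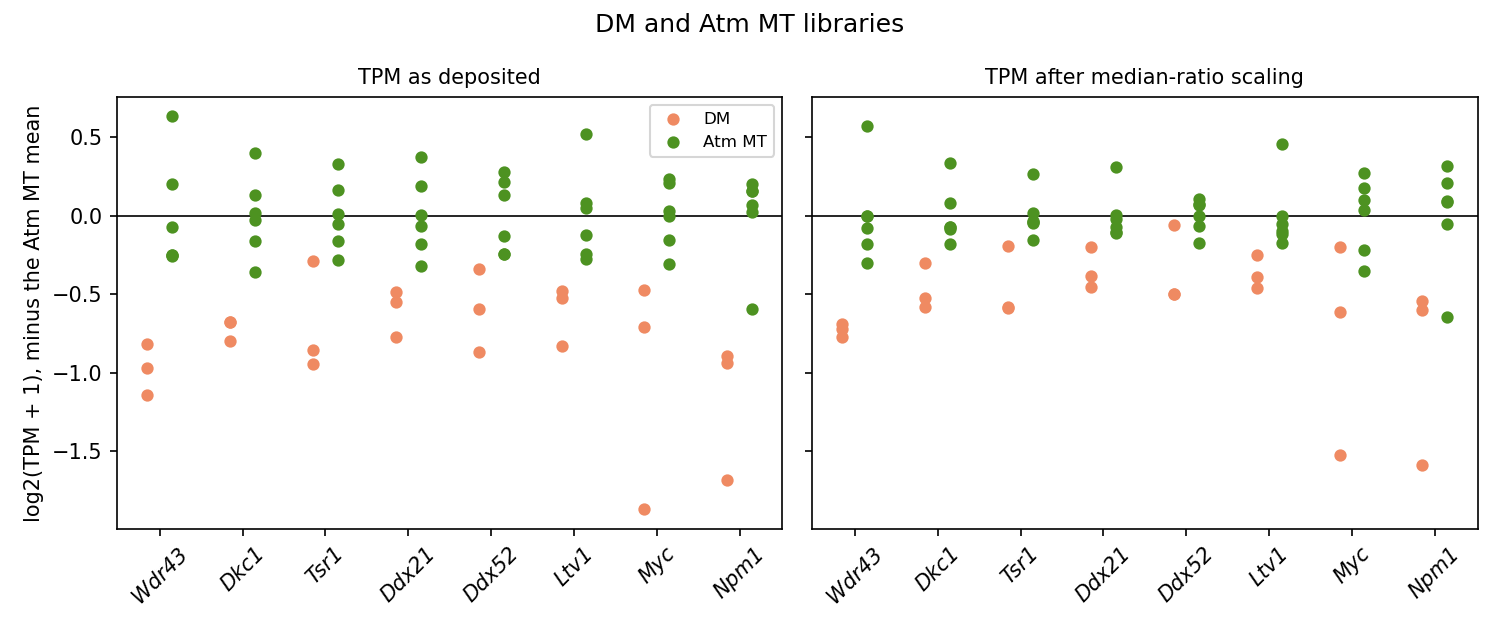
Log2 of TPM plus 1 minus the Atm MT mean (vertical axis) in each DM (orange) and Atm MT (green) library, for the 6 genes that passed as deposited and for Myc and Npm1, as deposited (left) and after scaling (right). As deposited the DM points lie below all Atm MT points for each gene, and after scaling the gaps narrow and Myc, Npm1 and Ddx52 overlap.

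The other comparisons share these DM, Atm MT and WT libraries, and none of the 53 genes passed in them on either scale. For Sf3b1 MT against WT (0.0707% of all genes called, 0.0303% after scaling, 1047 with an unadjusted p under 0.05), 4 of the 53 had an unadjusted p under 0.05 and the median was -0.12, against -0.11 for all genes. Npm1 had the smallest p, with 309, 70.5 and 141 TPM in Sf3b1 MT and 382, 403 and 244 TPM in WT (-1.19 ± 0.40, adjusted p = 0.348; -1.06 after scaling, adjusted p = 0.445). The groups overlapped, and Sf3b1 MT replicate 2 was the lowest of all 17 libraries. Dkc1 followed at -0.58 (adjusted p = 0.377) and Ncl at -0.79 (adjusted p = 0.389). Myc had a ratio of -0.08 (adjusted p = 0.982), or 0.05 after scaling. After scaling Pes1 had the smallest p, with every Sf3b1 MT library above every WT library, at 52.95, 59.05 and 52.8 TPM against 39.25, 39.2 and 46.3 TPM as deposited (0.53 ± 0.10 after scaling, adjusted p = 0.108).

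For Atm MT against WT (0.647% of all genes called, 0.626% after scaling), 39 of the 53 genes had ratios above 0 as deposited (41.0% of all genes did). After scaling 48 did (52.8% of all genes). The medians were 0.08 and 0.14, against -0.05 and 0.01 for all genes. Myc averaged 24.2 ± 3.58 TPM in Atm MT (SD, n = 6) and 16.2 ± 7.26 TPM in WT (n = 3), with overlap (0.64 ± 0.30, adjusted p = 0.440; 0.71 after scaling, adjusted p = 0.319). Nat10, the acetyltransferase of small-subunit RNA, had the smallest p (0.27, adjusted p = 0.433), 2 of the 53 had an unadjusted p under 0.05 (11.3% of all genes did) and 5 after scaling (12.7% of all genes), and Tsr1 followed Myc (0.35, adjusted p = 0.493). For DM against WT (2.23% of all genes called, 0.273% after scaling), 15 of the 53 had an unadjusted p under 0.05 as deposited (28.3%, against 23.96% of all genes) and 3 after scaling (5.66%, against 14.7%), and the median of -0.29 was close to the -0.25 of all genes (0.03 for both after scaling). Ddx21, Bop1 and Dkc1 had ratios of -0.55, -0.47 and -0.60 (adjusted p = 0.112 each). For these genes DM and WT did not overlap as deposited and did after scaling. Myc had -0.38 (adjusted p = 0.495; -0.07 after scaling). For DM against Sf3b1 MT (0.121% of all genes called, 0.162% after scaling), Bop1, Mybbp1a and Rrp9 had the smallest p, at -0.46, -0.34 and -0.45 (adjusted p = 0.293, 0.324 and 0.365), 5 of the 53 had an unadjusted p under 0.05 (11.1% of all genes did) and 0 after scaling (9.67% of all genes), and Myc had -0.30 (adjusted p = 0.807).

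The interaction asks whether the joint change in DM departs from the sum of the single lesions. In limma 0 of 9898 genes passed (0% called, 546 with an unadjusted p under 0.05, and 696 after scaling), and 2 of the 53, Mybbp1a (-0.44, adjusted p = 0.795) and Bop1 (-0.47, adjusted p = 0.881), had an unadjusted p under 0.05. Utp20 was next (-0.57, adjusted p = 0.896), and Myc had -0.94 ± 0.46 (adjusted p = 0.896; -0.83 after scaling, adjusted p = 0.768). Of the 53 interaction terms 48 were below 0 and 5 above (9.43%, against 37.9% of all genes) as deposited. After scaling 38 were below 0 and 15 above (28.3%, against 51.8% of all genes). The median was -0.23 against -0.09 for all genes, or -0.12 against 0.01 after scaling. They rest on the same libraries as the comparisons above.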

How the data were processed

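RNA of B cells was sequenced in 17 libraries. The authors deposited 1 table of TPM per gene symbol and library. Reads were aligned with STAR to mm10, per the submitters' processing notes, while the program that made the TPM and its annotation are not given in the sources used here. No counts were given, so depth and counting error are unknown, and genes that share sequence could not be separated further.

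From the TPM, log2(TPM + 1) was fitted with limma 3.58.1 in R 4.3.3 (lmFit, contrasts and eBayes with a trend) for 9898 genes, those that reached 1 TPM in 2 or more libraries. Fold changes on this scale understate the change of low genes. Comparisons without DM-CLL used 15 libraries and those with it 17, with Benjamini-Hochberg adjustment over all 9898 genes and a threshold of 0.05. The fit was tested on simulated data. Tables and figures used Python 3.11.15, pandas 2.3.3, numpy 2.4.6 and matplotlib 3.10.9.

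The members and lists were chosen with earlier results of these data known. Genes were named in the text by rule: Myc, Max and Mxd4, the passing members with the largest changes (up to 10 in each direction), the member of each role with the highest mean TPM, up to 4 passing genes a comparison from the other lists, and, where none passed, the 3 with the smallest p. Genes outside it, such as Polr1a, Utp18, Noc3l, Imp4, Srm and Heatr1, were named after their values were seen, as were the Apex1 promoter, the chromosome and snoRNA-host groupings and the omissions on scaled values. Mycl was not analysed here. Alternatives were another pseudocount, no filter, median-ratio scaling, rescaling without ribosomal protein and immunoglobulin genes, a replicate block, only the groups compared, and omission of libraries.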

Additional observations from a re-analysis of the deposited data

Results flagged for a closer look

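Of 26 named genes examined in Atm MT, the group of 6 libraries, 4 had a library far from the other 5 by Dixon's criterion, which chance meets in about 1 in 20 groups. Npm1 was lowest in Atm MT replicate 5, at 252.84 TPM against 388.63 to 439.8 TPM in the other libraries. Atm MT replicate 2 was highest for the other 3, at 38.14 TPM for Bop1 (others 28.96 to 31.56), 30.03 TPM for Nop16 (others 13.99 to 19.23) and 9.65 TPM for Wdr12 (others 4.34 to 6.25).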

How the results depend on the processing

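The count of members higher in DM-CLL than in DM was 45 as reported, 11 with median-ratio scaling, 12 after rescaling without ribosomal protein and immunoglobulin genes, 20 with the replicate block, 24 with only the groups compared, 19 to 47 when each library was left out and 4 to 16 when this was done on scaled values. Against WT the count of 25 was 12, 13, 3 (block) and 6 under the same settings, 5 to 27 in the omissions and 3 to 18 in those on scaled values. The count of 6 lower in DM than in Atm MT was 0 with no filter, 0 with scaling, 0 after rescaling, 3 with the block, 1 with only the groups compared, 0 without Atm MT replicates 1 to 4 and 0 to 11 in the omissions. In DM against WT, 1 member was lower with the block, where 1051 of all genes were. Of all genes, 2889 were higher in DM-CLL than in DM as reported. This was 873 with scaling, 833 after rescaling, 1098 with the block and 1508 with only the groups compared. Against WT these counts were 1021, 759, 684, 404 and 612. Lower in DM than in Atm MT were 447 as reported, 117 with no filter and 111, 96, 530 and 29 under the same settings. Without Atm MT replicates 1 to 4 there were 24. The labels do not say whether the replicate numbers pair the libraries. Of 18 same-numbered pairs 5 had a correlation of deviations over 0.1 (range -0.363 to 0.364). Pairs with different numbers were not set beside them here, so these values cannot decide it.

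Directions reversed only where the reported change had not passed. Myc in Sf3b1 MT against WT was 0.050 with scaling, 0.032 after rescaling and -0.46 to 0.21 in the omissions. In the omissions Myc ranged over -0.76 to 0.047 in DM against WT and -0.57 to 0.13 in DM against Sf3b1 MT. In DM-CLL against DM, Max was -0.16 with scaling and -0.13 after rescaling, and Pes1 -0.066 and -0.035. In DM-CLL against WT, Mxd4 was -0.083 with the block and -0.11 to 0.68 in the omissions, and Npm1 was -0.14 with scaling, -0.16 after rescaling and -0.41 to 0.54 in the omissions. Over all alternatives, named genes kept their direction and side of the threshold in 1215 values, lost the call in 159, gained it in 17 and reversed in 17. The cause of these changes was not tested. The DM-CLL group has 2 libraries, and where 1 is left out the other is assumed to vary like the rest.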
